A study of Mus musculus with 12 samples.

Results

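The 36 genes described here are the glycolytic enzymes and genes of the response to low oxygen, chosen by name, with earlier results of these data known. They fall into 15 glycolytic enzymes, 5 genes of glycolysis control and side steps, and 16 hypoxia-response genes. Rows for 35 of them were found among the 12885 gene symbols of the deposited table, and all 35 passed the filter on low values, which leaves 12726 tested genes. Bnip3 was not analysed here. The cells were naive CD8+ T cells (CD62L high, CD44 low or negative) from spleens of 6-week-old C57Bl/6 mice that the labels give as female. Zn4 cells came from Ikaros-Zn4-/- mice, which carry a homozygous mutation of the transcription factor Ikaros, and WT cells came from wild-type mice. Cells of each genotype were lysed at once (0 h), or were first stimulated for 12 h or 24 h by plate-bound antibodies to CD3 and CD28, which stand in for the T cell receptor and costimulatory signals. Each of the 6 groups (Zn4 and WT, at 0, 12 and 24 h) had 2 libraries. The mice were mutant throughout life, so Zn4 cells had also developed with the mutation, and the labels do not say that the 2 replicates were separate animals, so p-values measure only the spread between these libraries.

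Glycolysis splits glucose into pyruvate, which lactate dehydrogenase can turn into lactate, and activated T cells are known to raise both steps when they prepare to divide. The HIF transcription factors, of which Hif1a encodes the best-known subunit, are marked for destruction by the oxygen-dependent prolyl hydroxylases Egln1 and Egln3. When oxygen falls, or when T cell receptor signals raise HIF, targets are switched on that include most glycolytic enzymes as well as Vegfa, Adm, Ndrg1 and Pdk1. Many HIF sites share the core letters ACGTG or GCGTG, and CACGTG is the E-box that Myc family factors bind.

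The promoters of 5 members are printed to show these letters in genes on which the results below turn (Hk2, Egln3 and Adm) and in a pair of glycolytic enzymes that rose strongly in both genotypes (Pgk1 and Ldha). Each is the 250 bases before the start listed in RefSeq on GRCm38.p6, read 5′ to 3′ on the strand of the gene. Capitals mark these 3 motifs on either strand, so the reverse strand of ACGTG reads CACGT. The windows are chr6:82774455-82774704, minus strand, for Hk2, chrX:106186850-106187099, plus strand, for Pgk1, chr7:46845554-46845803, plus strand, for Ldha, chr12:54203875-54204124, minus strand, for Egln3, and chr7:110627407-110627656, plus strand, for Adm.
Hk2: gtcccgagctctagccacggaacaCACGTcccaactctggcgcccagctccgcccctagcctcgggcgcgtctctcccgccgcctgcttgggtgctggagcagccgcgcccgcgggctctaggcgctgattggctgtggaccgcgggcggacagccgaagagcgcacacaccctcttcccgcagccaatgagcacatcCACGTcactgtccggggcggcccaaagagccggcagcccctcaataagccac
Pgk1: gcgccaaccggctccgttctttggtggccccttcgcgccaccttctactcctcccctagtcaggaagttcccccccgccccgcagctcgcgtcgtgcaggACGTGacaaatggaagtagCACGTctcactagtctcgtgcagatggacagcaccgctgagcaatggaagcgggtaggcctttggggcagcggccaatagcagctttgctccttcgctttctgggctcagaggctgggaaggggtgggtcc
Ldha: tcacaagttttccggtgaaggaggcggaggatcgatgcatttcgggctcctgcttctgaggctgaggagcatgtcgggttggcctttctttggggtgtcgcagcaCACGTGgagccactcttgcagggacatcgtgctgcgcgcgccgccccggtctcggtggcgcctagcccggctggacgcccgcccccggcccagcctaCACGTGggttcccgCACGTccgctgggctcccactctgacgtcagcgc
Egln3: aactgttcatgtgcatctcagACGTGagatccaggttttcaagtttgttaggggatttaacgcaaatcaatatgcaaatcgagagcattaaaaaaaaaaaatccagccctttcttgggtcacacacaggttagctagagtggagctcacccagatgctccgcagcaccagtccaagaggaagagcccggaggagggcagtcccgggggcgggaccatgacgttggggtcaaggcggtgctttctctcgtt
Adm: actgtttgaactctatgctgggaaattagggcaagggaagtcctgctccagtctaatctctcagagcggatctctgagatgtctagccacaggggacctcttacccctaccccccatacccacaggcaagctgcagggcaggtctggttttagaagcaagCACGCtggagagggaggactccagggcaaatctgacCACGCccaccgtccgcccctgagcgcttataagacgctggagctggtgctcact
Ldha held 2 E-boxes, each of which contains ACGTG on both strands. Adm held GCGTG 2 times and no ACGTG, and the Vegfa window held none of the 3 motifs. While the 5 printed windows all held ACGTG or GCGTG, those of the enzymes Hk1, Gpi1, Aldoa, Tpi1 and Pkm held none of the 3. Aldoa, Tpi1 and Pkm also rose strongly in both genotypes. Of the 33 members matched to a promoter (Bnip3 among them), 25 (75.8%) held ACGTG or GCGTG on either strand. The share was 10 of 15 (66.7%) for the glycolytic enzymes and 12 of 14 (85.7%) for the hypoxia-response genes. Among all 8157 listed genes with a promoter of the same length it was 58.9%, and among all 27025 promoters it was 38.6%. CACGTG was in 4 member promoters (12.1%), against 8.9% of the listed genes. A match is a description of the letters and not of binding.

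Recovered library sizes ran from 24263907 to 33389808 reads. In Zn4 cells at 12 h, replicates 1 and 2 had 43.4 and 21 RPKM (reads scaled to gene length and library size) summed over 4 Y-linked genes, against 38.9 and 0.00198 RPKM in WT cells. These transcripts were at or below 0.0209 RPKM in every 0 h and 24 h library. Xist, made from the inactive X chromosome of female cells, was at 0.0258 and 24.3 RPKM in Zn4 cells and 0.0023 and 52.6 RPKM in WT cells at 12 h. It was at 27.2 to 82.7 RPKM in every 0 h and 24 h library. Replicate 1 of each genotype at 12 h thus reads as male, although labelled female, and WT replicate 2 as female. Zn4 replicate 2 held both signals. In results that use the 12 h libraries, sex cannot be fully told apart from time. Nor can it be fully told apart from genotype where Zn4 and WT cells are compared at 12 h or in their change to 12 h. These results are given with this limit. Ikzf1, the Ikaros gene, was at 90.9 to 139 RPKM in every library, and its value per gene does not check the genotype. The 8 markers of CD8 T cells summed to 1490 and 1560 RPKM in Zn4 cells and 1390 and 1440 RPKM in WT cells at 0 h. Their sum was 977 and 1020 RPKM in Zn4 cells and 1460 and 1380 RPKM in WT cells at 12 h, and 918 and 1070 RPKM in Zn4 cells and 1430 and 1370 RPKM in WT cells at 24 h. Stimulated Zn4 libraries were thus lower in this sum, with 1 of the 8 markers called higher and 4 lower in Zn4 cells at 12 h and again at 24 h, and its part in the genotype differences below was not tested. Markers of erythroid and NK cells were not among the rows, and Cd4 and the 1 listed myeloid marker were at or below 2.09 RPKM. The 1 listed B cell marker, Cd79b, was at 1.56 and 1.73 RPKM in Zn4 cells and 6.62 and 6.53 RPKM in WT cells at 24 h. In such bulk RNA, fewer cells of a type and less RNA per cell cannot be told apart.

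**Figure D1:**
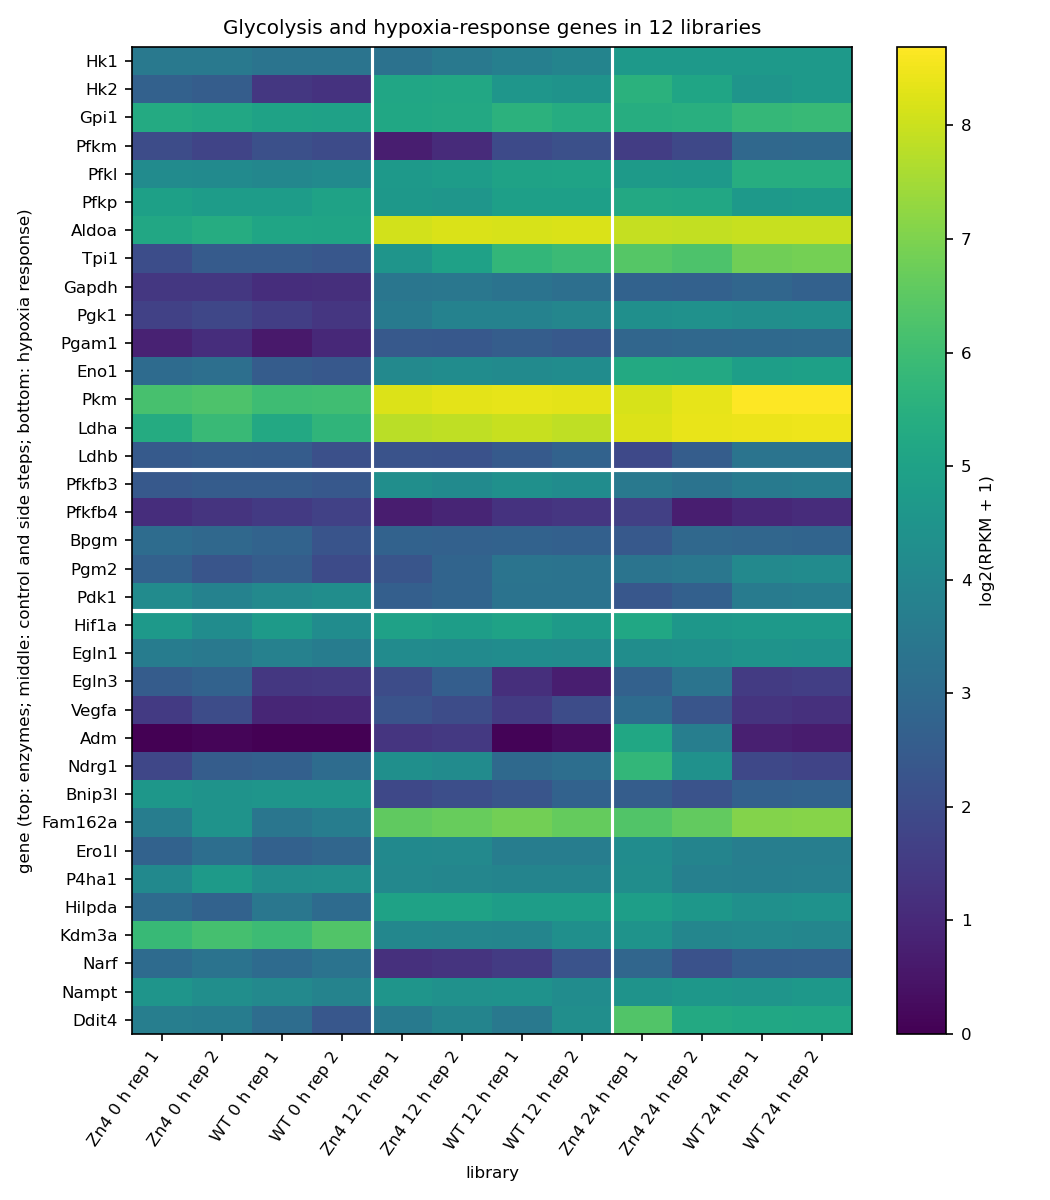
Level of 35 genes (rows) in 12 libraries (columns), as log2(RPKM + 1), with Zn4 left of WT at each time and white lines between times and gene groups. Aldoa, Pkm and Ldha are the brightest rows after stimulation, and Adm is brighter at 24 h in the Zn4 libraries than in any other library.

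Resting cells held low levels of most enzymes, and stimulation raised most of the 15 enzymes in both genotypes. The 15 enzymes summed to 270 and 295 RPKM in Zn4 libraries and 239 and 254 RPKM in WT libraries at 0 h. At 12 h the sums were 981 and 1050 RPKM in Zn4 cells and 1110 and 1100 RPKM in WT cells, and at 24 h they were 1160 and 1220 RPKM in Zn4 cells and 1360 and 1370 RPKM in WT cells. Every stimulated library was above every resting one, and the Zn4 sums lay above the WT sums at 0 h and below them at 12 h and 24 h. Pkm (pyruvate kinase), Ldha (lactate dehydrogenase A) and Aldoa (aldolase A) held 54.1% to 59.0% of the sum at rest in the 4 libraries of both genotypes, 77.2% to 80.2% at 12 h and 71.3% to 74.2% at 24 h. The 15 listed hypoxia-response genes moved much less as a sum. They reached 208 and 231 RPKM in Zn4 cells and 204 and 212 RPKM in WT cells at 0 h, 286 and 289 RPKM in Zn4 cells and 278 and 272 RPKM in WT cells at 12 h, and 430 and 318 RPKM in Zn4 cells and 314 and 318 RPKM in WT cells at 24 h.

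Between 0 h and 24 h, 12 of 15 enzymes rose and 0 fell in Zn4 cells (median log2 change 1.93), and 14 rose and 0 fell in WT cells (median 2.18). With either other scaling (quantile or median-ratio) the counts were 10 higher and 3 lower in Zn4 cells, and 14 higher and 1 lower in WT cells. The 3 that were then lower in Zn4 cells were Gpi1, Pfkm and Ldhb, and the 1 in WT cells was Pfkp. All tested genes had a median of 0.31 in each genotype, and of all genes 74.7% in Zn4 cells and 73.9% in WT cells were called (limma, Benjamini-Hochberg adjusted p under 0.05), so a call alone says little here and the size of the change is the result. Tpi1, triose phosphate isomerase, changed most among the enzymes, by 4.07 ± 0.17 (log2, SE, adjusted p = 5.3e-08) in Zn4 cells and by 4.42 ± 0.17 (adjusted p = 4.3e-08) in WT cells. Its level was 83.7 and 76.5 RPKM in Zn4 cells at 24 h, against 3.13 and 4.66 RPKM at 0 h. In WT cells it was 112 and 116 RPKM at 24 h, against 4.67 and 4.11 RPKM at 0 h. Neither pair of groups overlapped. Ldha, which makes lactate, had 300 and 335 RPKM in Zn4 cells at 24 h, against 39.9 and 57.6 RPKM at 0 h, a log2 change of 2.70 ± 0.18 (adjusted p = 6.4e-07). In WT cells it had 349 and 351 RPKM at 24 h, against 36.6 and 50.3 RPKM at 0 h, a log2 change of 3.0 ± 0.18 (adjusted p = 3.4e-07). Aldoa, which splits fructose bisphosphate, rose by 2.62 ± 0.08 in Zn4 cells (adjusted p = 1.8e-08) and by 2.86 ± 0.08 in WT cells (adjusted p = 1.7e-08).

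The lower part of the pathway rose as well. Pgk1, phosphoglycerate kinase, rose by 2.59 ± 0.12 on the log2 scale in Zn4 cells (adjusted p = 1.0e-07) and by 2.82 ± 0.12 in WT cells (adjusted p = 6.8e-08). Pgam1, phosphoglycerate mutase, rose by 1.93 ± 0.15 in Zn4 cells (adjusted p = 1.8e-06) and by 2.18 ± 0.15 in WT cells (adjusted p = 8.5e-07). Gapdh, the glyceraldehyde phosphate dehydrogenase, was listed at only 1.20 to 9.93 RPKM in the 12 libraries. Levels of these genes are uncertain, because 24.7% of the 50-base words of Gapdh, 53.9% of Pgk1, 36.2% of Pgam1, 26.0% of Eno1 and 25.8% of Pkm also occur in other annotated genes, and how such reads were counted is not given in the sources used here. The same holds for Ldhb (21%) and Bnip3l (20.8%).

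Among the control genes, Pfkfb3, which makes the activator of phosphofructokinase, peaked at 12 h. It averaged 4.60 ± 0.301 RPKM at 0 h, 17.7 ± 0.962 at 12 h and 9.67 ± 1.21 at 24 h in Zn4 cells (SD, n = 2). Its WT averages were 4.53 ± 0.328 RPKM at 0 h, 18.5 ± 1.41 at 12 h and 11.1 ± 0.611 at 24 h. Pdk1, a kinase that inhibits pyruvate dehydrogenase, went the other way from the enzymes. It had 4.19 and 5.33 RPKM in Zn4 cells at 24 h, against 17.1 and 13.4 RPKM at 0 h, and fell by 1.49 ± 0.14 on the log2 scale (adjusted p = 6.0e-06). WT cells had 11.2 and 11.8 RPKM at 24 h, against 16.1 and 18 RPKM of it at 0 h, and it fell by 0.53 ± 0.14 (adjusted p = 0.00581). Bpgm, which makes bisphosphoglycerate, and Pfkfb4, a second such bifunctional enzyme, passed the test at 24 h against 0 h in neither genotype, but this depended on scaling. With quantile normalization and with median-ratio scaling, Bpgm was called lower in Zn4 cells (-0.69, adjusted p = 0.00818, and -0.66, adjusted p = 0.01) and Pfkfb4 in WT cells (-0.79, adjusted p = 0.0155, and -0.78, adjusted p = 0.0141). Pfkfb4 in WT cells was also called when only the libraries compared were fitted (-0.54, adjusted p = 0.0133).

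**Figure D2:**
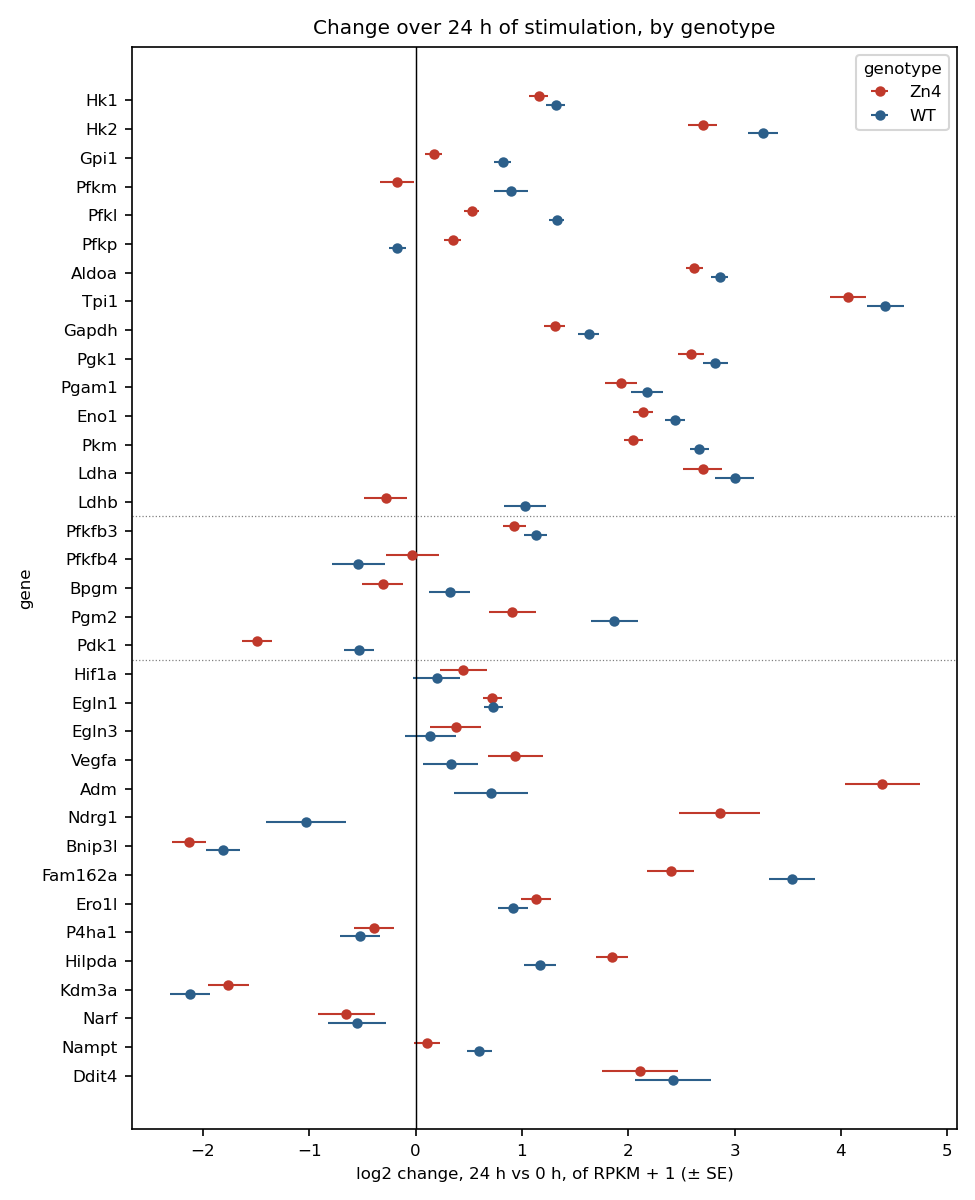
Log2 change of RPKM + 1 between 24 h and 0 h for each gene (rows), with its SE, in Zn4 cells (red, upper point) and WT cells (blue, lower point). Most enzymes lie right of 0 in both genotypes, the hypoxia-response genes spread to both sides, and Adm and Ndrg1 separate the genotypes most.

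The hypoxia-response genes did not move as a block. In Zn4 cells, 8 of 15 rose and 3 fell between 0 h and 24 h (median log2 change 0.72), and in WT cells 6 rose and 4 fell (median 0.33), beside the median of 0.31 of all genes. Of all genes 74.7% in Zn4 cells and 73.9% in WT cells were called, and these counts are not set apart from those shares. With either other scaling the counts were 7 higher and 4 lower in Zn4 cells, and 5 higher and 5 lower in WT cells. Fam162a, a mitochondrial protein, had 79.2 and 96.4 RPKM in Zn4 cells at 24 h, against 11.8 and 21 RPKM at 0 h, and rose by 2.40 ± 0.22 (log2, adjusted p = 5.5e-06). In WT cells it had 133 and 136 RPKM at 24 h, against 9.72 and 11.7 RPKM at 0 h, and rose by 3.54 ± 0.22 (adjusted p = 4.3e-07). Neither pair of groups overlapped, and at 12 h it was already at 94.9 and 101 RPKM in Zn4 cells and 114 and 99.3 RPKM in WT cells. Hilpda, a lipid droplet protein, rose by 1.85 ± 0.15 in Zn4 cells (adjusted p = 2.6e-06) and by 1.17 ± 0.15 in WT cells (adjusted p = 6.4e-05). Ero1l, the oxidase that forms disulfide bonds in the endoplasmic reticulum, rose by 1.13 ± 0.14 in Zn4 cells (adjusted p = 5.1e-05) and by 0.92 ± 0.14 in WT cells (adjusted p = 2.3e-04). Ddit4, an inhibitor of mTORC1, had 79.7 and 37.5 RPKM in Zn4 cells at 24 h, against 12.2 and 11.6 RPKM at 0 h. In WT cells it had 35.2 and 34.5 RPKM at 24 h, against 7.65 and 4.17 RPKM at 0 h. It rose by 2.11 ± 0.36 in Zn4 cells (adjusted p = 4.9e-04) and by 2.42 ± 0.36 in WT cells (adjusted p = 2.0e-04).

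Other hypoxia-response genes fell. Kdm3a, a histone H3 lysine demethylase, fell by 1.76 ± 0.19 on the log2 scale in Zn4 cells (adjusted p = 2.1e-05) and by 2.12 ± 0.19 in WT cells (adjusted p = 5.7e-06). Bnip3l, a receptor for the removal of mitochondria, had 4.88 and 3.71 RPKM in Zn4 cells at 24 h, against 23.2 and 21.1 RPKM at 0 h. WT cells had 5.40 and 5.69 RPKM at 24 h, against 21.9 and 22.0 RPKM at 0 h. It fell by 2.13 ± 0.16 in Zn4 cells (adjusted p = 1.5e-06) and by 1.81 ± 0.16 in WT cells (adjusted p = 4.6e-06). Narf, which binds prelamin A, was lowest at 12 h, with 1.32 and 1.46 RPKM in Zn4 cells and 1.82 and 3.65 RPKM in WT cells. The log2 change of Hif1a itself at 24 h against 0 h was 0.45 ± 0.22 in Zn4 cells (adjusted p = 0.0926) and 0.20 ± 0.22 in WT cells (adjusted p = 0.423). Egln1, the main HIF prolyl hydroxylase, rose by 0.72 ± 0.09 in Zn4 cells (adjusted p = 4.9e-05) and by 0.73 ± 0.09 in WT cells (adjusted p = 4.4e-05). P4ha1, a subunit of collagen prolyl hydroxylase, had a log2 change of -0.39 ± 0.19 in Zn4 cells (adjusted p = 0.0853) and -0.52 ± 0.19 in WT cells (adjusted p = 0.0324), and the WT call ended without any 1 of the 4 WT libraries at 0 h and 24 h (adjusted p = 0.0826 to 0.105). In Zn4 cells P4ha1 was called lower with quantile normalization (-0.79, adjusted p = 0.00571) and with median-ratio scaling (-0.77, adjusted p = 0.0047). Nampt, the NAD salvage enzyme, had a change of 0.11 ± 0.12 in Zn4 cells (adjusted p = 0.443) and 0.60 ± 0.12 in WT cells (adjusted p = 0.00143), which was 0.23 (adjusted p = 0.124) with quantile normalization.

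For the enzymes the larger part of the change came before 12 h, with a median log2 change of 1.43 in Zn4 cells and 1.72 in WT cells, while between 12 h and 24 h it was 0.50 in Zn4 cells and 0.39 in WT cells. Between 0 h and 12 h, 17 members rose and 6 fell in Zn4 cells, where 73.0% of all genes were called, and 21 rose and 4 fell in WT cells, where 70.2% were called. With median-ratio scaling the split was 17 higher and 12 lower in Zn4 cells and 15 higher and 7 lower in WT cells, and with quantile normalization it was 17 higher and 6 lower in WT cells. Between 12 h and 24 h, 11 members rose and 3 fell in Zn4 cells (33.6% of all genes called) and 13 rose and 3 fell in WT cells (24.0%), or 8 higher and 5 lower in WT cells with median-ratio scaling. The WT count was 7, 10, 7 and 5 with WT 12 h replicate 1, WT 12 h replicate 2, WT 24 h replicate 1 and WT 24 h replicate 2 left out. With the Y-linked level as a covariate the counts between 12 h and 24 h were 5 in Zn4 cells and 7 in WT cells. Eno1, enolase, rose in that span by 1.10 ± 0.09 in Zn4 cells (adjusted p = 2.4e-05) and by 0.72 ± 0.09 in WT cells (adjusted p = 4.4e-04). Tpi1 rose again, by 1.57 ± 0.17 in Zn4 cells (adjusted p = 1.5e-04) and by 1.01 ± 0.17 in WT cells (adjusted p = 0.00276). Over the whole 24 h, 22 members rose and 4 fell in Zn4 cells (74.7% of all genes called) and 22 rose and 5 fell in WT cells (73.9%), counts that are not set apart from these shares. With either other scaling, WT cells had 14 higher and 1 lower among the enzymes. They then had 2 higher and 2 lower among the control and side-step genes and 5 higher and 5 lower among the hypoxia-response genes. In Zn4 cells the split was 19 higher and 9 lower with either other scaling, which moves the median of all genes from 0.31 to 0.00 or -0.01. Small changes therefore depend on scaling: Gpi1 (glucose phosphate isomerase) in Zn4 cells was 0.17 and not called, but -0.25 with quantile normalization and -0.22 with median-ratio scaling, and Pfkp was 0.35 and called, but -0.07 and -0.04.

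Resting Zn4 cells differed from resting WT cells in 3 members, all higher, beside 5.72% of all genes called (3.76% higher and 1.96% lower). Hk2, the inducible hexokinase that traps glucose in the cell, had 5.56 and 4.84 RPKM in Zn4 cells, against 1.64 and 1.42 RPKM in WT cells, a log2 difference of 1.29 ± 0.14 (adjusted p = 6.9e-04). Egln3, the inducible HIF prolyl hydroxylase, had 4.83 and 5.65 RPKM in Zn4 cells, against 1.63 and 1.74 RPKM in WT cells, a difference of 1.22 ± 0.24 (adjusted p = 0.0184). Eno1 had 7.26 and 8.10 RPKM in Zn4 cells, against 4.81 and 4.28 RPKM in WT cells, a difference of 0.65 ± 0.09 (adjusted p = 0.00235). In all 3 genes both Zn4 libraries lay above both WT libraries, but the genes were picked by their calls, so this is no separate support. The median difference was 0.19 over the enzymes and 0.06 over the hypoxia-response genes, beside -0.02 over all genes. The other 32 members were not called, Vegfa (0.79 ± 0.26, adjusted p = 0.136) and Ddit4 (0.95 ± 0.36, adjusted p = 0.199) being the widest apart. None of the 3 passed when only the 4 resting libraries were fitted (adjusted p = 0.0607 for Hk2, 0.198 for Eno1 and 0.0662 for Egln3), and the call of Egln3 ended without any 1 of the 4 (adjusted p = 0.0572 to 0.106). The 1 listed myeloid marker was at 1.04 and 1.16 RPKM in Zn4 cells and 0.190 and 0.179 RPKM in WT cells at 0 h, and its part in these differences was not tested.

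**Figure D3:**
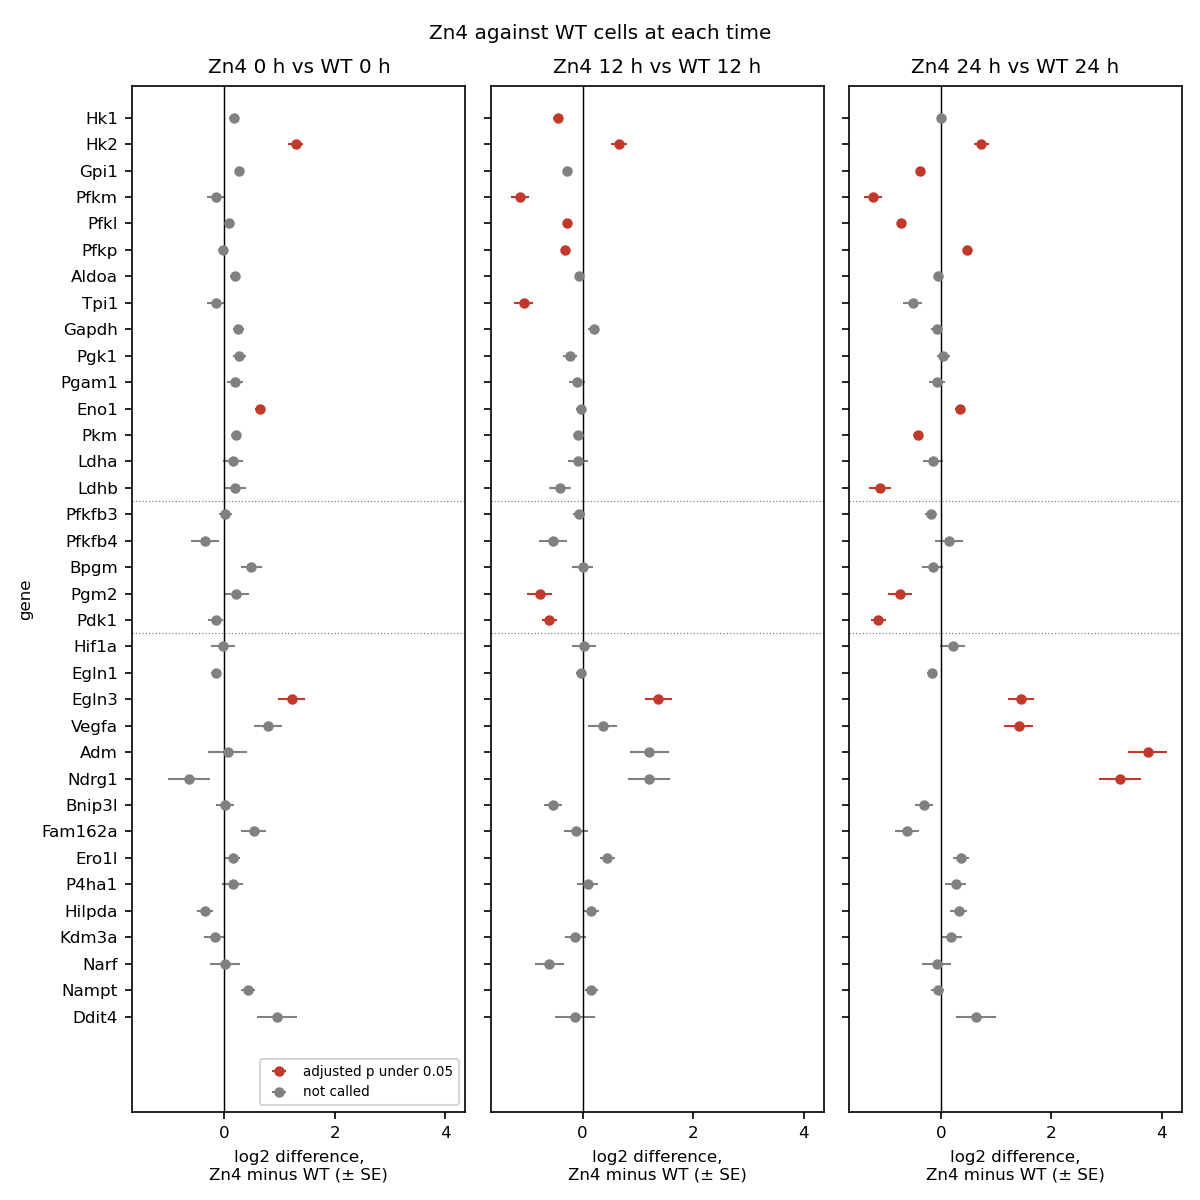
Log2 difference of RPKM + 1, Zn4 minus WT, with its SE, for each gene at 0 h, 12 h and 24 h, with red points where the adjusted p is under 0.05. Red points number 3 at 0 h, 9 at 12 h and 14 at 24 h, and those of the enzymes lie on both sides of 0 at 24 h while those of the hypoxia-response genes lie to the right.

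At 12 h, 2 members were higher and 7 lower in Zn4 cells, beside 13.1% of all genes called (4.85% higher and 8.28% lower). Pfkm, the muscle type of phosphofructokinase, had 0.661 and 1.11 RPKM in Zn4 cells, against 2.85 and 3.34 RPKM in WT cells, a log2 difference of -1.13 ± 0.16 (adjusted p = 0.00153). Tpi1 had 22.4 and 30.7 RPKM in Zn4 cells, against 52.6 and 59.8 RPKM in WT cells, a difference of -1.07 ± 0.17 (adjusted p = 0.00347). The groups did not overlap in either gene. Pdk1 had 5.19 and 5.89 RPKM in Zn4 cells, against 8.88 and 8.97 RPKM in WT cells, a difference of -0.60 ± 0.14 (adjusted p = 0.0179). Hk1, the constitutive hexokinase, had 8.78 and 10.3 RPKM in Zn4 cells, against 12.4 and 14.1 RPKM in WT cells, a difference of -0.44 ± 0.09 (adjusted p = 0.0147). Both were lower in each Zn4 library. Pfkl, the liver type of phosphofructokinase, had 25.3 and 26.8 RPKM in Zn4 cells, against 31.5 and 32.1 RPKM in WT cells, a difference of -0.28 ± 0.07 (adjusted p = 0.0367). Pfkp, the platelet type, had 23.6 and 22.7 RPKM in Zn4 cells, against 29.3 and 29.0 RPKM in WT cells, a difference of -0.32 ± 0.08 (adjusted p = 0.0336). All 3 phosphofructokinase genes were therefore lower in Zn4 cells at 12 h, although Pfkl was not called with median-ratio scaling (adjusted p = 0.0567), nor Pfkp with median-ratio scaling (0.0593) or quantile normalization (0.0512). The row named Pgm2, a phosphoglucomutase, was lower as well (-0.78 ± 0.22, adjusted p = 0.0445), but that symbol has been used for more than 1 phosphoglucomutase gene, and which one the row holds is uncertain.

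The members that were higher in Zn4 cells at 12 h were again Hk2 and Egln3. Hk2 had 34.3 and 35.7 RPKM in Zn4 cells, against 22.5 and 21.2 RPKM in WT cells, a log2 difference of 0.66 ± 0.14 (adjusted p = 0.0155). Egln3 had 3.10 and 5.08 RPKM in Zn4 cells, against 1.24 and 0.675 RPKM in WT cells, a difference of 1.37 ± 0.24 (adjusted p = 0.00576). Adm (1.21 ± 0.35, adjusted p = 0.0536) and Ndrg1 (1.21 ± 0.38, adjusted p = 0.0676) lay just outside the threshold. Adm was called with a pseudocount of 0.1 (2.96, adjusted p = 0.0058), when only the 12 h libraries were fitted (1.21, 0.00699) and without either Zn4 24 h library (3.4e-04 each). Ndrg1 was called when only the 12 h libraries were fitted (0.00566), in limma-voom (1.31, 0.0493) and without Zn4 24 h replicate 1 (0.0107) or replicate 2 (0.0106). With the Y-linked level as a covariate 3 members passed, Pfkm (-1.03, adjusted p = 0.00958), Tpi1 (-0.96, adjusted p = 0.0201) and Egln3 (1.27, adjusted p = 0.0320). Pfkm and Tpi1 also passed without any 1 of the 4 libraries at 12 h (adjusted p up to 0.0190 and 0.0377). The call of Egln3 ended without WT 12 h replicate 2 (adjusted p = 0.0580), that of Hk1 without WT 12 h replicate 2 (0.132) or Zn4 12 h replicate 1 (0.133), that of Hk2 without any 1 of the 4 libraries (0.0594 to 0.110), and that of Pdk1 without WT 12 h replicate 1 (0.0790), WT 12 h replicate 2 (0.105) or Zn4 12 h replicate 1 (0.138). Those of Pfkl and Pfkp ended without any 1 of the 12 h or WT 24 h libraries (adjusted p = 0.0808 to 0.237 and 0.0658 to 0.164), and that of Pgm2 without either WT 12 h, WT 24 h or Zn4 24 h library or Zn4 12 h replicate 1 (0.0603 to 0.299).

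At 24 h the genotypes differed in 14 members, 7 higher and 7 lower in Zn4 cells, beside 19.4% of all genes called (9.40% higher and 9.96% lower). The hypoxia-response genes were 4 higher and 0 lower, and the enzymes 3 higher and 5 lower. Adm, at chr7:110627661-110629820 on the plus strand of GRCm38, encodes the vessel-dilating peptide adrenomedullin. It had 35.2 and 12.3 RPKM in Zn4 cells, against 0.687 and 0.588 RPKM in WT cells, a ratio of means of 37.2 and a log2 difference of RPKM + 1 of 3.74 ± 0.35 (adjusted p = 1.6e-04). These values rest on 1460 and 497 reads in Zn4 cells and on 27 reads in each WT library. At 0 h Adm was at 0 and 0.0916 RPKM in Zn4 cells and at 0 RPKM in both WT libraries, where 3 reads would give 0.0555 to 0.0764 RPKM over the 12 libraries. Ndrg1, at chr15:66929318-66969640 on the minus strand, encodes a cytoplasmic protein induced by stress and low oxygen. It had 52.7 and 20.3 RPKM in Zn4 cells, against 2.71 and 2.40 RPKM in WT cells, a ratio of means of 14.3 and a log2 difference of 3.25 ± 0.38 (adjusted p = 4.5e-04). Both Zn4 libraries lay far above both WT libraries in these 2 genes, and Zn4 replicate 1 was the higher one in each.

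Vegfa, the vascular growth factor, at chr17:46016993-46032369 on the minus strand, had 7.28 and 3.92 RPKM in Zn4 cells at 24 h, against 1.49 and 1.33 RPKM in WT cells. The log2 difference was 1.41 ± 0.26 (adjusted p = 0.00576). Egln3, at chr12:54178981-54203860 on the minus strand, had 5.49 and 9.13 RPKM in Zn4 cells, against 1.83 and 2.09 RPKM in WT cells, a difference of 1.45 ± 0.24 (adjusted p = 0.00328). It was the only hypoxia-response gene called in Zn4 against WT cells at all 3 times. Replicate 1 of the Zn4 cells was higher than replicate 2 in Vegfa, Adm, Ndrg1 and Ddit4, and lower in Egln3. Without Zn4 24 h replicate 1 the log2 difference was 3.02 for Adm (adjusted p = 2.1e-05), 2.59 for Ndrg1 (0.00106), 1.03 for Vegfa (0.0441) and 1.78 for Egln3 (0.00370). Without Zn4 24 h replicate 2 it was 4.47 for Adm (1.9e-06), 3.92 for Ndrg1 (8.2e-05), 1.78 for Vegfa (0.00231) and 1.13 for Egln3 (0.0157). The other 11 listed hypoxia-response genes were not called, with Hif1a at 0.21 ± 0.22 (adjusted p = 0.558) and Fam162a at -0.62 ± 0.22 (adjusted p = 0.0771). Fam162a was called lower in limma-voom (-0.63, adjusted p = 0.0208), when only the 24 h libraries were fitted (0.0355) and without either Zn4 0 h library (0.00936 each).

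**Figure D4:**
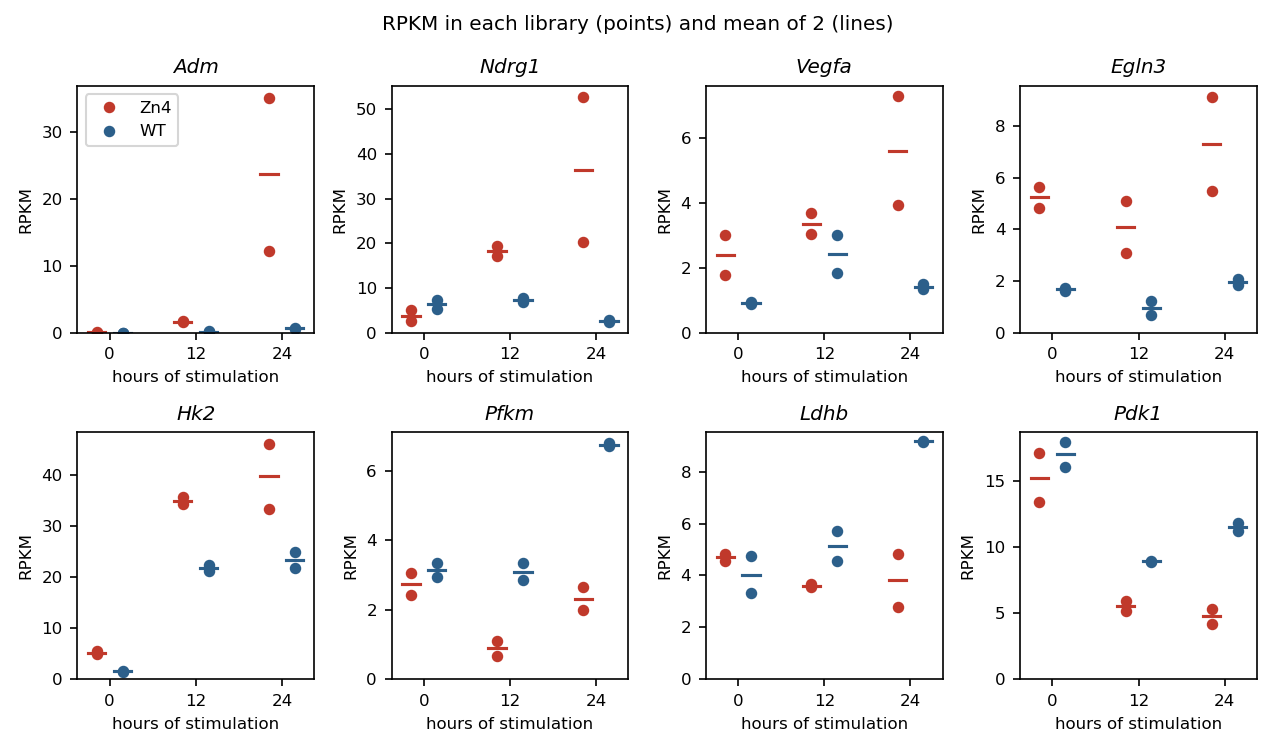
RPKM of 8 genes in each library (points) and the mean of 2 libraries (short lines) at 0, 12 and 24 h of stimulation, with Zn4 cells in red left of WT cells in blue. At 24 h both Zn4 points lie above both WT points for Adm, Ndrg1, Vegfa, Egln3 and Hk2 and below them for Pfkm, Ldhb and Pdk1.

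Among the enzymes at 24 h, Hk2 had 46.2 and 33.4 RPKM in Zn4 cells, against 21.9 and 24.9 RPKM in WT cells, a log2 difference of 0.73 ± 0.14 (adjusted p = 0.00721). Pfkp had 36.6 and 35.8 RPKM in Zn4 cells, against 25.0 and 26.4 RPKM in WT cells, a difference of 0.48 ± 0.08 (adjusted p = 0.00404). Eno1 had 37.9 and 36.6 RPKM in Zn4 cells, against 28.5 and 29.4 RPKM in WT cells, a difference of 0.35 ± 0.09 (adjusted p = 0.0209). These 3 enzymes were higher in each Zn4 library than in either WT library, and 5 others were lower. Pfkl had 25.6 and 24.6 RPKM in Zn4 cells, against 41.6 and 42.1 RPKM in WT cells, a difference of -0.72 ± 0.07 (adjusted p = 2.6e-04). Pfkm had 1.98 and 2.65 RPKM in Zn4 cells, against 6.70 and 6.79 RPKM in WT cells, a difference of -1.23 ± 0.16 (adjusted p = 7.4e-04). So 1 phosphofructokinase gene was higher in Zn4 cells and the other two were lower. Ldhb, the lactate dehydrogenase subunit of heart, had 2.79 and 4.84 RPKM in Zn4 cells, against 9.16 and 9.19 RPKM in WT cells, a difference of -1.11 ± 0.20 (adjusted p = 0.00507). Pkm had 284 and 330 RPKM in Zn4 cells, against 412 and 405 RPKM in WT cells, a difference of -0.42 ± 0.09 (adjusted p = 0.00867). Gpi1 had 41.3 and 43.3 RPKM in Zn4 cells, against 54.1 and 56.4 RPKM in WT cells, a difference of -0.38 ± 0.08 (adjusted p = 0.0128). In each of these genes both Zn4 libraries lay below both WT libraries, which is no separate support for genes picked by their calls.

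Outside the enzymes, Pdk1 was at 4.19 and 5.33 RPKM in Zn4 cells and 11.2 and 11.8 RPKM in WT cells at 24 h, a log2 difference of -1.13 ± 0.14 (adjusted p = 5.7e-04). Pdk1, which inhibits pyruvate dehydrogenase and is named above among the HIF targets, was lower while Adm, Ndrg1, Vegfa and Egln3 were higher. HIF activity was not tested. The Pgm2 row was lower too (-0.74 ± 0.22, adjusted p = 0.0425). Of the 14 calls, those of Pfkm, Pfkl, Pfkp, Ldhb, Pdk1, Egln3, Vegfa, Adm and Ndrg1 held whichever library was left out. When only the 24 h libraries were fitted, Hk2 (adjusted p = 0.0598) and Pkm (0.0584) did not pass, and Hk2 did not pass with WT 24 h replicate 1 left out (0.0700). Eno1 did not pass without the 12 h libraries (0.0568). Those of Gpi1, Eno1 and Pkm ended without WT 24 h replicate 1 (0.0663, 0.146 and 0.0733), WT 24 h replicate 2 (0.108, 0.104 and 0.0606) or Zn4 24 h replicate 1 (0.0801, 0.111 and 0.0573), and that of Pgm2 without any 1 of the 24 h libraries or the WT 12 h libraries (0.0648 to 0.20). The count was 9 without WT 24 h replicate 1.

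Isozyme shares changed with time and genotype, as levels per length within a step. Hk2 made up 35.0% and 31.7% of the summed Hk1 and Hk2 RPKM in Zn4 cells at 0 h, against 15.3% and 13.3% in WT cells. Its share was 79.6% and 77.5% in Zn4 cells at 12 h, against 64.4% and 60.0% in WT cells, and 65.6% and 57.4% in Zn4 cells at 24 h, against 47.5% and 50.6% in WT cells. Both Zn4 libraries were above both WT libraries at each time. The Pfkp share of the 3 phosphofructokinase genes was 57.0% and 56.7% in Zn4 cells at 24 h, against 34.1% and 35.0% in WT cells. The Pfkl share was 39.9% and 39.1% in Zn4 cells at 24 h, against 56.8% and 56.0% in WT cells. Pfkp thus led in Zn4 cells and Pfkl in WT cells at 24 h, although at 12 h Pfkl held 51.1% and 53.0% in Zn4 cells and 49.5% and 49.8% in WT cells. Egln3 made up 23.3% and 32.1% of Egln1 and Egln3 together in Zn4 cells at 24 h, against 7.89% and 9.24% in WT cells. This is not the share of the whole step, because Egln2 was left out of the sum. Egln2 had 14.5 and 15.5 RPKM in Zn4 cells at 24 h, against 18.7 and 17 RPKM in WT cells. These shares were not tested.

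**Figure D5:**
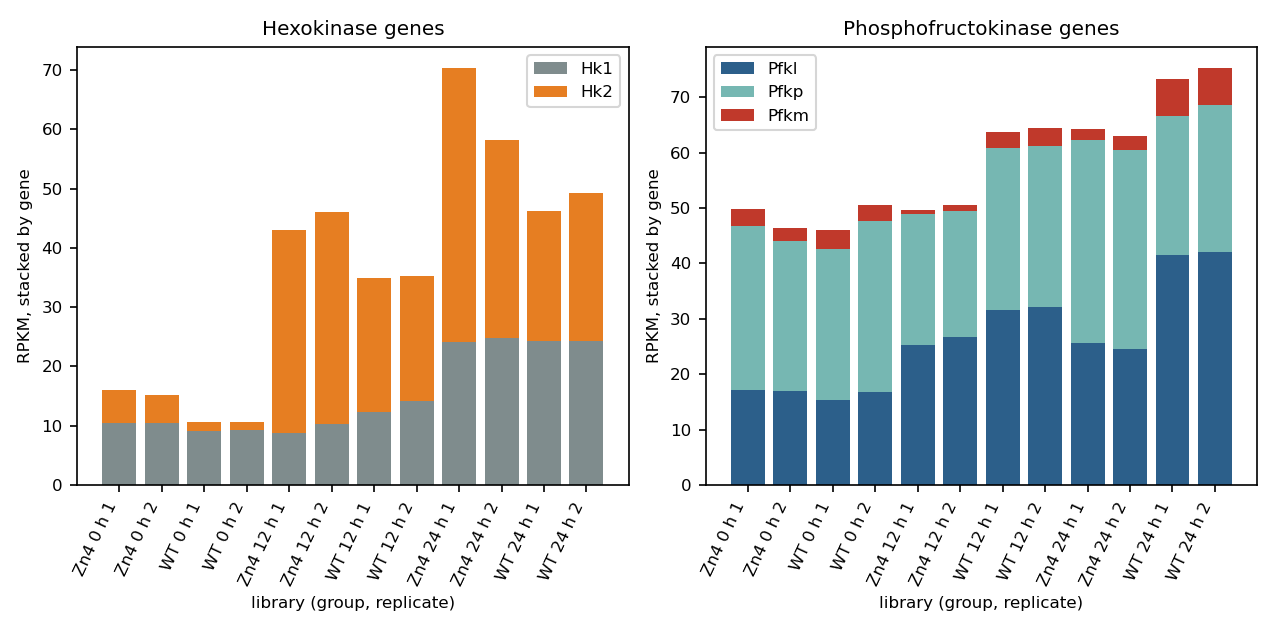
RPKM of the hexokinase genes Hk1 and Hk2 (left) and the phosphofructokinase genes Pfkl, Pfkp and Pfkm (right), stacked, in each of 12 libraries, with Zn4 left of WT at each time. The Hk2 part is larger in Zn4 than in WT libraries at each time, and at 24 h Pfkp is the larger part in Zn4 libraries and Pfkl in WT libraries.

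A test of the difference in response asks whether the change from rest differed between Zn4 and WT cells. For 0 h to 12 h it called 4 members, all enzymes with a smaller value in Zn4 cells (Hk1, Gpi1, Pfkm and Eno1), beside 5.12% of all genes (1.54% higher and 3.58% lower). Which members passed depended on single libraries. The count was 0 without Zn4 12 h replicate 1, 1 or 2 without any 1 of the WT libraries or Zn4 0 h replicate 2, and 7 without either Zn4 24 h library. For 0 h to 24 h it called 9 members, 3 higher and 6 lower, beside 8.24% of all genes (3.88% higher and 4.35% lower). The change of Adm was larger in Zn4 cells by 3.68 ± 0.50 (log2, adjusted p = 0.00384) and that of Ndrg1 by 3.89 ± 0.53 (adjusted p = 0.00391). Ndrg1 rose in Zn4 cells (2.86 ± 0.38, adjusted p = 7.7e-05) and fell in WT cells (-1.03 ± 0.38, adjusted p = 0.0312). The fall in WT cells was not called without WT 0 h replicate 2 (adjusted p = 0.147), WT 24 h replicate 1 (0.0754) or WT 24 h replicate 2 (0.108). The change of Pfkl was smaller in Zn4 cells, by a difference of -0.80 ± 0.10 (adjusted p = 0.00343). These 3 differences passed whichever library was left out. However, that of Adm rests on few reads, both in WT cells and in Zn4 cells at 0 h. It did not pass in limma-voom on the recovered reads (3.51, adjusted p = 0.493). The others (Gpi1, Pfkm, Pkm, Ldhb and Pdk1 lower, Pfkp higher) did not pass without WT 24 h replicate 1 (adjusted p = 0.0547 to 0.141) or WT 24 h replicate 2 (0.0702 to 0.0936), and the count was then 3 in each case. Egln3, higher in Zn4 cells at each time, had a difference in response of 0.24 ± 0.34 (adjusted p = 0.738) for 0 h to 24 h. For Hk2, also higher at each time, it was -0.57 ± 0.20 (adjusted p = 0.128), and whether it passed depended on the setting. It was -0.96 (0.0338) with a pseudocount of 0.1, -1.02 (0.0482) in limma-voom and -0.80 (0.0298) without Zn4 24 h replicate 1. For 0 h to 12 h the value of Hk2 was -1.03 (0.0331) with a pseudocount of 0.1, -1.08 (0.0457) in limma-voom and -0.64 without Zn4 24 h replicate 1 (0.0369) or replicate 2 (0.0364).

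Other genes of the same pathways were taken from lists of neighbouring steps. All 7 pentose phosphate genes rose between 0 h and 24 h in both genotypes, with medians of 0.84 in Zn4 cells and 1.25 in WT cells, and with either other scaling 5 of them were called in Zn4 cells and 7 in WT cells. Between genotypes at 24 h, 19.4% of all genes were called, and the counts in these short lists are not set apart from that share. At 24 h, 2 of the 7 were lower in Zn4 cells, Taldo1 (transaldolase, -0.47 ± 0.12, adjusted p = 0.0207) and Pgd (phosphogluconate dehydrogenase, -0.45 ± 0.12, adjusted p = 0.0245), and neither passed without WT 24 h replicate 1 (0.157 and 0.148), WT 24 h replicate 2 (0.0622 and 0.104) or Zn4 24 h replicate 1 (0.15 and 0.167). Of 7 other listed glycolytic isozymes, 1 was higher in Zn4 cells. This was Eno3, the enolase of muscle, with 85.3 and 70.0 RPKM in Zn4 cells, against 29.1 and 28.7 RPKM in WT cells (1.39 ± 0.16, adjusted p = 4.3e-04). Of 7 listed glucose and lactate transporters, 1 was higher, Slc2a6, with 12.9 and 5.56 RPKM in Zn4 cells, against 1.81 and 1.44 RPKM in WT cells (1.87 ± 0.30, adjusted p = 0.00273). Of 11 listed genes of pyruvate entry, 2 were lower, Pdk2 (-1.09 ± 0.15, adjusted p = 0.00123) and Pdk3 (-0.46 ± 0.13, adjusted p = 0.0401), kinases of the same family as Pdk1. The call of Pdk3 ended without any 1 of the 12 h or WT 24 h libraries or Zn4 24 h replicate 1 (adjusted p = 0.059 to 0.259). Of 7 listed glycogen genes, 1 was lower, Pygb (glycogen phosphorylase, -0.54 ± 0.12, adjusted p = 0.0110), which did not pass without WT 24 h replicate 1 (0.0662), WT 24 h replicate 2 (0.0812) or Zn4 24 h replicate 1 (0.0899).

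Of 15 other listed hypoxia targets, 4 were higher and 2 lower in Zn4 cells at 24 h, beside 9.40% of all genes higher and 9.96% lower. Bhlhe40, a transcription factor of activated T cells, had 246 and 117 RPKM in Zn4 cells, against 26.3 and 26.9 RPKM in WT cells (2.63 ± 0.37, adjusted p = 0.00132). Zn4 replicate 1 was again the higher of the Zn4 libraries. Car12, a carbonic anhydrase, had 3.88 and 5.87 RPKM in Zn4 cells, against 8.78 and 9.28 RPKM in WT cells, and was lower (-0.79 ± 0.17, adjusted p = 0.0117). Rora, a nuclear receptor, was higher (0.73 ± 0.20, adjusted p = 0.0295). Neither Car12 nor Rora passed without WT 24 h replicate 1 (0.0624 and 0.154), WT 24 h replicate 2 (0.0829 and 0.112) or Zn4 24 h replicate 1 (0.0879 and 0.136). Of 12 other listed genes of the HIF pathway, 1 was called in Zn4 against WT cells at 0 h, Epas1, which encodes the HIF2 alpha subunit, beside 5.72% of all genes. Epas1 had 12.9 and 15.1 RPKM in Zn4 cells at 0 h, against 1.06 and 1.60 RPKM in WT cells (2.69 ± 0.13, adjusted p = 5.3e-06). It was at 0.174 and 0.246 RPKM in Zn4 cells and 0.0310 and 0.0451 RPKM in WT cells at 12 h.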

How the data were processed

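RNA was measured by single-end TruSeq Stranded mRNA sequencing in 12 libraries. The deposited values are RPKM, which per the submitters' processing notes came from TopHat2 2.0.12 and HTSeq 0.6.1, and are not counts. Whole reads came back from the steps of 100.0% of gene symbols (tolerance 0.02 reads). The members and the lists were chosen with earlier results of these data known. The 12726 genes that reached 1 RPKM in 2 or more libraries were fitted on log2(RPKM + 1) with limma 3.58.1 in R 4.3.3, in 1 model of the 12 libraries with 6 residual degrees of freedom, and p-values were adjusted over all genes by Benjamini-Hochberg. The pseudocount understates changes of low genes. Members called in a genotype comparison, and the 3 with the largest change in WT cells at 12 h, are given per library, and other genes are called ones of fixed lists, at most 4 a list and comparison. Where the libraries of such a gene do not overlap, this is no separate support, because the gene was picked by its call or change. The count alternative, limma-voom on recovered reads, called 2610 genes between genotypes at 24 h. The fit was also run on simulated data with known changes, which checks the code and not the calls given here. Alternatives changed the pseudocount, filter, scaling, replicate block, Y-linked covariate or libraries fitted. Levels per length depend on the gene lengths used by the authors, and reads shared between similar genes are uncertain. Gene positions are from GENCODE M21 on GRCm38. The values of 1 gene counted among the lists of other genes are not reported here.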

Additional observations from a re-analysis of the deposited data

Results flagged for a closer look

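The change from rest to 12 h of stimulation differed between Zn4 and WT cells, by the limma test of the difference itself, in 4 enzymes. The difference (Zn4 change minus WT change, log2) was -0.55 ± 0.12 for Gpi1 (SE, adjusted p = 0.0321), -0.68 ± 0.12 for Eno1 (0.0161), -0.60 ± 0.13 for Hk1 (0.0338) and -0.97 ± 0.22 for Pfkm (0.0375). Which of these passed depended on single libraries, on the Y-linked covariate and on the libraries fitted, as described above and below.

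For rest to 24 h the same test picked out 9 members. The difference was 3.68 ± 0.50 for Adm (adjusted p = 0.00384), 3.89 ± 0.53 for Ndrg1 (0.00391) and 0.51 ± 0.12 for Pfkp (0.0304). It was -0.80 ± 0.10 for Pfkl (0.00343), -1.07 ± 0.22 for Pfkm (0.0194), -0.65 ± 0.12 for Gpi1 (0.0127), -0.63 ± 0.12 for Pkm (0.0154), -1.31 ± 0.29 for Ldhb (0.0259) and -0.96 ± 0.19 for Pdk1 (0.0175). Gpi1 and Pfkm were below 0 in both spans. As described above, the calls of Gpi1, Pfkm, Pkm, Ldhb, Pdk1 and Pfkp depended on single WT 24 h libraries. That of Adm did not pass in limma-voom.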

How the results depend on the processing

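Under the alternatives that changed a setting, 3426 results stayed on their side of the threshold, 104 lost a call, 82 gained one and 6 reversed direction with a call before or after. With a library left out the numbers were 4337, 195, 87 and 1. A result called neither before nor after was counted as staying, whatever its direction. Fitting only the libraries compared gave 0 members at 0 h in place of 3, 2 in place of 4 for the difference in change to 12 h (those 2 being higher, not lower, in Zn4 cells), and 5 in place of 9 for that to 24 h, which is also the count without the 12 h libraries, a setting chosen after seeing the data. The Y-linked covariate gave 3 in place of 9 for Zn4 against WT cells at 12 h, 5 in place of 14 for 24 h against 12 h in Zn4 cells, 7 in place of 16 for the same span in WT cells, and 1 in place of 4 for the difference in change to 12 h. Other causes were not tested. With each library left out, the Zn4 against WT counts ran from 2 to 3 at 0 h, 2 to 13 at 12 h and 9 to 16 at 24 h. For Zn4 cells they ran from 22 to 24 (12 h against 0 h), 11 to 16 (24 h against 12 h) and 25 to 29 (24 h against 0 h), and for WT cells from 22 to 26, 5 to 18 and 25 to 29. For the differences in change they ran from 0 to 7 (to 12 h) and 3 to 11 (to 24 h). Pfkp in WT cells at 12 h was -0.33 with quantile normalization and -0.29 with median-ratio scaling, in place of 0.01. In Zn4 cells at 24 h against 0 h, Gpi1 was -0.25 and -0.22 in place of 0.17, Pfkp -0.07 and -0.04 in place of 0.35, and Pfkfb4, at -0.03 over all libraries, was 0.43 with replicate 2 of the Zn4 24 h pair left out and -0.50 with replicate 1 left out. With the replicate number as a block, the counts were 3, 8 and 13 for Zn4 against WT cells at 0, 12 and 24 h and 4 and 10 for the differences in change, and Pgm2 lost its calls at 12 h (adjusted p = 0.0573) and 24 h (0.0540). Hif1a gained calls with the block, at 12 h against 0 h in Zn4 cells (0.45, 0.0202) and WT cells (0.39, 0.0362) and at 24 h in Zn4 cells (0.45, 0.0195). Same-numbered replicates correlated in their deviations by 0.61 between the genotypes at 0 h, 0.19 at 12 h and 0.04 at 24 h, and by -0.12 to 0.11 otherwise, so the numbers were not taken as pairs across all groups, although the resting libraries deviated together. Depth limits Adm and Epas1 where they are near 0.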

Other observations

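Other genes of neighbouring lists also differed. Tfrc, the transferrin receptor, had 16.0 and 16.2 RPKM in Zn4 cells at 0 h, against 9.31 and 6.21 RPKM in WT cells (log2 difference 0.99 ± 0.17, limma adjusted p = 0.00876), which did not pass when only the resting libraries were fitted (0.175) or without Zn4 0 h replicate 2 (0.0513). By 24 h it had 133 and 131 RPKM in Zn4 cells and 150 and 161 RPKM in WT cells, and its change from rest differed by -1.22 ± 0.24 (Zn4 minus WT, adjusted p = 0.0165), which did not pass without WT 24 h replicate 1 (0.0566), WT 24 h replicate 2 (0.0739) or Zn4 24 h replicate 1 (0.0531). The change of Epas1 from 0 h to 24 h differed by -2.32 ± 0.19 (adjusted p = 2.7e-04; -1.27 and 0.143 in limma-voom), and it was at 0.397 and 0.422 RPKM in Zn4 cells and 0.0854 and 0.0930 RPKM in WT cells at 24 h. The change of Eno3 from 0 h to 24 h differed by 1.29 ± 0.22 (adjusted p = 0.0102), that of Pdk2 by -1.06 ± 0.21 (0.0184) and that of Car12 by -1.26 ± 0.25 (0.0157). Those of Pdk2 and Car12 did not pass without WT 24 h replicate 1 (0.0598 each) or WT 24 h replicate 2 (0.0858 and 0.0716), nor that of Pdk2 without Zn4 24 h replicate 1 (0.0636). At 12 h Pygb, a glycogen phosphorylase, had 6.59 and 8.2 RPKM in Zn4 cells, against 12.9 and 13.6 RPKM in WT cells (-0.77 ± 0.12, adjusted p = 0.00255).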
